A study of Komagataella pastoris with 4 samples.

Results

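The genes described here are the glutathione, thioredoxin and oxidant defence genes of *Pichia pastoris* (*Komagataella phaffii*), a yeast that can grow on methanol or ethanol. They were found by searching the annotation of each gene for the words glutathione, thioredoxin, peroxiredoxin, glutaredoxin, superoxide, methionine sulfoxide, cytochrome c peroxidase or thiol peroxidase. Of 5427 annotated genes 53 matched, 2 that also matched terms set aside by the rule (formaldehyde metabolism, catalase, NADH) were dropped, and 51 remained. By their fuller annotation 44 of the 51 act in thiol or oxidant metabolism. The other 7 carry a matching word or fold but have another main function, and they were kept and are marked as such where they appear.

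RNA sequencing compared *GS115*, a *his4* histidine auxotroph, with *Dmxr1*, a derivative of *GS115* in which a zeocin resistance cassette disrupts the coding region of *MXR1*. *MXR1* encodes a zinc finger transcription factor of carbon metabolism, and the comparison asked which transcripts depend on it during growth on ethanol. Both strains were cultured in minimal medium with ethanol (YNBE) for 14 h, in duplicate, and 2 libraries were made from each. The study describes slower growth of *Dmxr1* in this medium, so effects of growth and of the missing regulator cannot be told apart. In bulk RNA, less transcript per cell and fewer cells that carry it cannot be told apart either.

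Glutathione is a small peptide thiol that is made by successive ligase steps, oxidised by peroxidases and glutaredoxins, attached to reactive compounds by transferases, and reduced again by glutathione reductase. Thioredoxin is a small protein that does similar work, and it passes electrons from NADPH through thioredoxin reductase to peroxiredoxins and methionine sulfoxide reductases. Superoxide dismutases turn superoxide into hydrogen peroxide, which peroxidases and catalase remove. In ethanol-grown yeast the respiratory chain is a known source of such oxidants.

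The libraries held 24140235 to 29402357 gene counts each. All 51 genes passed the filter on low counts, with 122 to 36600 counts per library. The row of *MXR1* itself (ACIB2EUKG772516) had 287 and 405 CPM in *GS115* and 206 and 258 in *Dmxr1* (log2 fold change -0.58, adjusted p = 0.0787). Counts over a disrupted gene do not test the label. CPM, the usual depth-scaled unit of read counts, was computed with TMM-adjusted library totals. Since gene lengths were not used, CPM is compared between strains and not between genes.

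Most of the oxidant defence genes differed little between the strains. With edgeR's quasi-likelihood test, 3 of 51 were called lower in *Dmxr1* (adjusted p of at most 0.05 and a log2 fold change of at least 1 in size), where 3.26% of all 5425 genes tested were called lower. None was called higher (0 of 51, against 0.535% of all genes). At an unadjusted p under 0.05 there were 10 of the 51 lower (18.5% of all genes) and 6 higher (13.5% of all genes), and DESeq2 also called 0 higher. By adjusted p alone 5 were lower, against 10.5% of all genes, and 4 were higher, against 5.07%. Both *Dmxr1* libraries lay below both *GS115* libraries for 16 genes (31.3% of all genes did so) and above both for 17 (31.1% of all genes), and the strains overlapped for 18. These shares of the 51 are near those of all genes, and so are the median log2 fold changes, 0.05 for the 51 and 0.00 for all genes. Together the 51 genes took 1.11% and 1.08% of all reads counted in *GS115* libraries and 1.18% and 1.16% in those of *Dmxr1*. The genes are given by role.

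**Figure D1:**
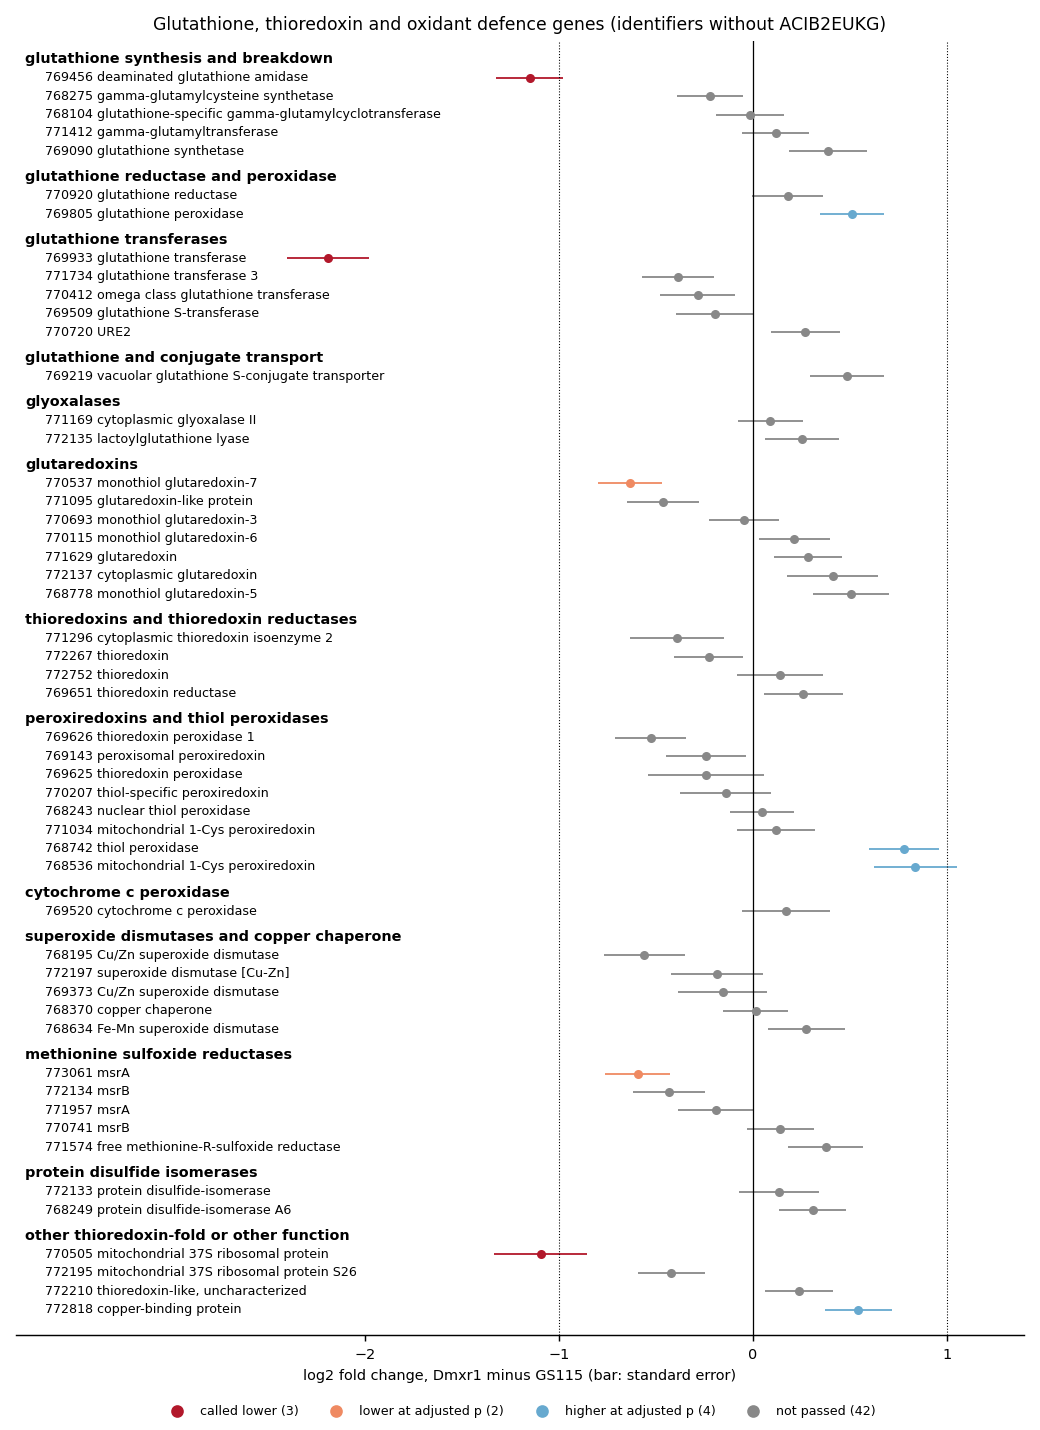
Log2 fold change of each of the 51 genes (x axis, *Dmxr1* minus *GS115*, bars are standard errors), grouped by role, with 2 libraries per strain. Dotted lines mark a log2 fold change of 1 in either direction. The 3 genes in dark red were called lower, 6 more passed the adjusted p alone, and the other 42 lay between -0.56 and 0.51.

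Glutathione transferases, which join glutathione to electrophilic compounds or reduce peroxides with it, held the largest difference among the 51. The transferase ACIB2EUKG769933 had 545 and 444 CPM in *GS115* and 121 and 96.2 CPM in *Dmxr1*. Every *GS115* library was above every *Dmxr1* library by a wide margin. The mean fell from 494 ± 71.5 CPM to 108 ± 17.3 CPM (SD, n = 2 each), a 4.56-fold lower level (log2 fold change -2.19 ± 0.21 SE, adjusted p = 8.03e-06). The other transferases did not share this change.

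Glutathione transferase 3 (ACIB2EUKG771734) had 301 and 261 CPM in *GS115* and 208 and 223 in *Dmxr1*. The omega class transferase ECM4 (ACIB2EUKG770412) had 229 and 244 CPM in *GS115* and 169 and 221 in *Dmxr1*. Their *Dmxr1* libraries lay below those of *GS115*, but neither passed the test (log2 fold changes -0.39 and -0.28, adjusted p = 0.167 and 0.333). ACIB2EUKG769509, annotated as a glutathione S-transferase, had 454 and 452 CPM in *GS115* and 339 and 452 in *Dmxr1*, and the strains met at the upper value (log2 fold change -0.19, adjusted p = 0.539). URE2 (ACIB2EUKG770720) has a transferase fold, but in *S. cerevisiae* it is known as a regulator of nitrogen catabolite genes. Its values were 121 and 95.6 CPM in *GS115* and 127 and 134 CPM in *Dmxr1* (adjusted p = 0.308). Thus 1 of 5 genes in this group passed the test, a group too small to compare with the 3.26% of all genes called lower.

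Of the 5 genes of glutathione synthesis and breakdown, 1 was called lower (3.26% of all genes were). ACIB2EUKG769456, annotated as the hydrolase NIT2 and as deaminated glutathione amidase, clears a faulty form of glutathione that transaminases make as a side product. It had 104 and 89.8 CPM in *GS115* and 41.8 and 45.5 CPM in *Dmxr1*, with no overlap. Its mean fell from 97.0 ± 10.3 CPM to 43.7 ± 2.59 CPM (SD, n = 2 each), 2.22-fold (log2 fold change -1.15 ± 0.17 SE, adjusted p = 0.000683).

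The enzymes that make glutathione did not pass the test. Gamma-glutamylcysteine synthetase GSH1 (ACIB2EUKG768275), the first ligase of the pathway, had 152 and 134 CPM in *GS115* and 124 and 121 in *Dmxr1*. Glutathione synthetase GSH2 (ACIB2EUKG769090), the next ligase, had 25.9 and 36.2 CPM in *GS115* and 46.1 and 35.4 in *Dmxr1*. The log2 fold changes were -0.22 ± 0.17 and 0.39 ± 0.20 (SE), with adjusted p = 0.399 and 0.195, so the ligases pointed in opposite directions and neither was resolved. Degradation enzymes were closer still. The cytosolic gamma-glutamylcyclotransferase ACIB2EUKG768104 had 60.8 and 50.2 CPM in *GS115* and 52.1 and 57.6 in *Dmxr1* (adjusted p = 0.962). Gamma-glutamyltransferase ACIB2EUKG771412, which in *S. cerevisiae* breaks glutathione down in the vacuole, had 44.4 and 54.0 CPM in *GS115* and 52.5 and 54.3 in *Dmxr1* (adjusted p = 0.67). Both strains overlapped for these degradation enzymes.

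Glutathione peroxidase ACIB2EUKG769805, which reduces peroxides, was higher in *Dmxr1*, by less than the fold threshold. It had 91.1 and 89.0 CPM in *GS115* and 134 and 123 in *Dmxr1* (1.43-fold, log2 fold change 0.51 ± 0.17 SE, adjusted p = 0.0477). This adjusted p lies close to the threshold, and the threshold was not met when any 1 of the 4 libraries was left out. The log2 fold change was then 0.53 without *GS115* replicate 1 and 0.50 without *GS115* replicate 2. It was 0.45 without *Dmxr1* replicate 1 and 0.57 without *Dmxr1* replicate 2. With all libraries the edgeR adjusted p was 0.0213 with upper-quartile scaling and 0.104 with a replicate block. Glutathione reductase ACIB2EUKG770920, which restores reduced glutathione with NADPH, had 200 and 184 CPM in *GS115* and 228 and 206 in *Dmxr1*. Its libraries did not overlap, yet the difference was small (log2 fold change 0.18 ± 0.18 SE, adjusted p = 0.524). YCF1 (ACIB2EUKG769219), the vacuolar pump for glutathione conjugates, had 90.7 and 127 CPM in *GS115* and 151 and 154 in *Dmxr1*, and it did not pass either (log2 fold change 0.49 ± 0.19 SE, adjusted p = 0.0926). The glyoxalases use glutathione to turn methylglyoxal into lactate. Glyoxalase GLO1 (ACIB2EUKG772135) had 281 and 296 CPM in *GS115* and 319 and 369 in *Dmxr1* (log2 fold change 0.25, adjusted p = 0.378), and glyoxalase II (ACIB2EUKG771169) had a log2 fold change of 0.09.

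Glutaredoxins are small proteins that reduce disulfides or carry iron-sulfur clusters with the help of glutathione. Of 7, 1 passed the adjusted p, and it was lower (10.5% of all genes were lower by adjusted p alone). Monothiol glutaredoxin-7 (ACIB2EUKG770537), a protein of the early secretory pathway in *S. cerevisiae*, had 113 and 110 CPM in *GS115* and 72.6 and 71.3 in *Dmxr1*. The replicates of each strain lay within a few CPM of each other, and the level was 1.55-fold lower in *Dmxr1* (log2 fold change -0.63 ± 0.16 SE, adjusted p = 0.0176). Leaving out *Dmxr1* replicate 1 or 2 raised its adjusted p to 0.141 or 0.0927 (0.0054 to 0.141 over all alternatives), with log2 fold changes of -0.65 and -0.62, and scaling by library size alone gave 0.0665. Glutaredoxin-6 (ACIB2EUKG770115), its counterpart in the same compartment in *S. cerevisiae*, had 89.2 and 66.6 CPM in *GS115* and 84.1 and 96.3 in *Dmxr1*. The ratio of glutaredoxin-7 to glutaredoxin-6 CPM within a library was 1.26 and 1.66 in *GS115* and 0.863 and 0.74 in *Dmxr1*. The ratios did not overlap, but an exact permutation test of 2 against 2 libraries cannot go below the two-sided p = 0.333 found here (0.417 after Benjamini-Hochberg adjustment over the 5 such ratios computed). Glutaredoxin-7 had already passed the adjusted p, so the ratio adds no separate support for its difference.

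The other glutaredoxins did not pass. Glutaredoxin-5 (ACIB2EUKG768778), which serves mitochondrial iron-sulfur cluster assembly in *S. cerevisiae*, had 80.8 and 55.6 CPM in *GS115* and 105 and 88.8 in *Dmxr1* (log2 fold change 0.51 ± 0.19 SE, adjusted p = 0.0889). The cytoplasmic glutaredoxin ACIB2EUKG772137 had 344 and 196 CPM in *GS115* and 343 and 376 in *Dmxr1*, and here the spread within *GS115* was as wide as the distance between the strains (adjusted p = 0.245). The remaining glutaredoxins ranged from -0.46 to 0.29 on the log2 scale.

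No gene of the thioredoxin and thioredoxin reductase group passed the test (0 of 4). Thioredoxin reductase ACIB2EUKG769651, which feeds NADPH electrons into the whole thioredoxin system, had 646 and 516 CPM in *GS115* and 669 and 721 in *Dmxr1* (log2 fold change 0.26 ± 0.20 SE, adjusted p = 0.402). The thioredoxins themselves had log2 fold changes of -0.39 (ACIB2EUKG771296, annotated as the cytoplasmic isoenzyme), -0.23 (ACIB2EUKG772267) and 0.14 (ACIB2EUKG772752). Their standard errors of 0.18 to 0.24 leave changes of that size unresolved.

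Peroxiredoxins and thiol peroxidases, which reduce hydrogen peroxide with a reactive cysteine, held 2 genes of 8 that were higher in *Dmxr1* by adjusted p alone. Of all genes 5.07% were higher by that measure, and a group of 8 is too small to compare with this share. Mitochondrial 1-Cys peroxiredoxin ACIB2EUKG768536 had 693 and 527 CPM in *GS115* and 1147 and 1033 in *Dmxr1*. All libraries of the mutant were above those of *GS115*, and the mean was 1.79-fold higher (610 ± 117 against 1090.0 ± 80.5 CPM, SD, n = 2 each, log2 fold change 0.84 ± 0.21 SE, adjusted p = 0.0162). This call depended on single libraries. Without *GS115* replicate 1 the log2 fold change was 1.05, past the fold threshold. The adjusted p was 0.0601 without *GS115* replicate 2 and 0.14 without *Dmxr1* replicate 1 (0.000484 to 0.14 over all alternatives).

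Thiol peroxidase ACIB2EUKG768742 had 61.3 and 55.5 CPM in *GS115* and 113 and 87.8 in *Dmxr1*. It was 1.72-fold higher in *Dmxr1* (log2 fold change 0.78 ± 0.18 SE, adjusted p = 0.0091), and of all alternatives it lost the threshold only without *Dmxr1* replicate 1 (0.59, adjusted p = 0.168, in a range of 0.00128 to 0.168). A further row annotated as mitochondrial 1-Cys peroxiredoxin, ACIB2EUKG771034, had 202 and 232 CPM in *GS115* and 199 and 273 in *Dmxr1*. It showed no resolved difference (log2 fold change 0.12, adjusted p = 0.708), and reads that the rows may share cannot be separated here. The ratio of ACIB2EUKG768536 to ACIB2EUKG771034 within a library was 3.43 and 2.27 in *GS115* and 5.77 and 3.78 in *Dmxr1*, without overlap (exact permutation two-sided p = 0.333, the smallest possible). Since ACIB2EUKG768536 had already passed the adjusted p, the ratio adds no separate support for its difference.

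The thioredoxin peroxidases had log2 fold changes below 0 and did not pass the test. ACIB2EUKG769625 had 1572 and 672 CPM in *GS115* and 1007 and 890 in *Dmxr1*. Its *GS115* libraries enclosed both *Dmxr1* libraries, and its standard error was the largest of the 51 (log2 fold change -0.24 ± 0.30 SE, adjusted p = 0.607). Thioredoxin peroxidase 1 (ACIB2EUKG769626), whose locus tag follows soon after on the same chromosome, had 169 and 132 CPM in *GS115* and 96.5 and 112 in *Dmxr1* (log2 fold change -0.53 ± 0.18 SE, adjusted p = 0.065). Its ratio to ACIB2EUKG769625 within a library was 0.107 and 0.196 in *GS115* and 0.0958 and 0.126 in *Dmxr1*, with overlap (exact permutation two-sided p = 0.667). The thiol-specific peroxiredoxin ACIB2EUKG770207, the peroxisomal peroxiredoxin PMP20 (ACIB2EUKG769143) and the nuclear thiol peroxidase ACIB2EUKG768243 ranged from -0.24 to 0.05 on the log2 scale. PMP20, a peroxisomal antioxidant of methylotrophic yeasts, was counted at 15.1 and 12.9 CPM in *GS115* and 10.9 and 12.7 CPM in *Dmxr1*.

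**Figure D2:**
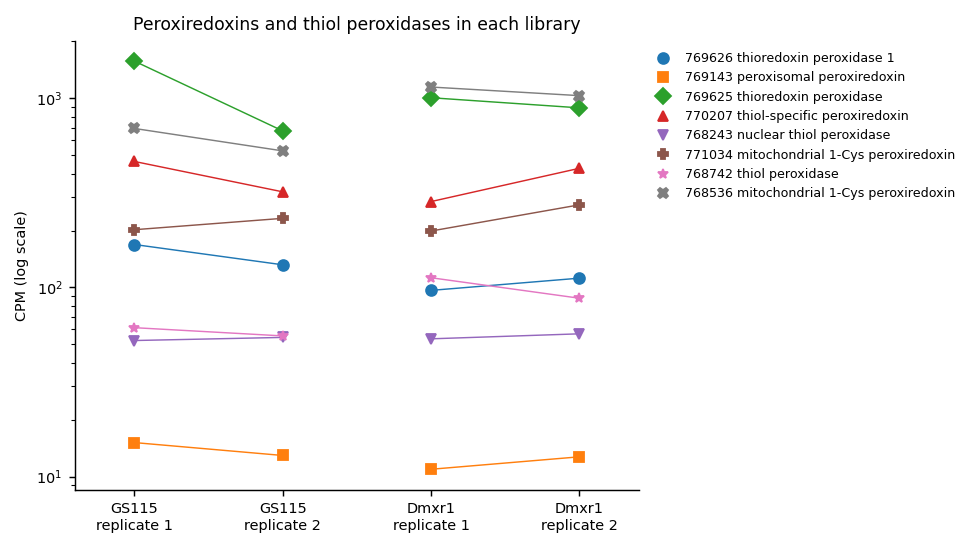
CPM (log axis) of the 8 peroxiredoxins and thiol peroxidases in each of the 4 libraries, with lines that join the replicates of a strain. ACIB2EUKG768536 and ACIB2EUKG768742 were higher in both *Dmxr1* libraries, while ACIB2EUKG769625 spanned 672 to 1572 CPM within *GS115* alone.

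Cytochrome c peroxidase ACIB2EUKG769520, which in *S. cerevisiae* removes hydrogen peroxide in the mitochondrial intermembrane space, had 983 and 1043 CPM in *GS115* and 1363 and 919 in *Dmxr1*. The strains overlapped (log2 fold change 0.17 ± 0.23 SE, adjusted p = 0.634). None of the superoxide dismutases or their copper chaperone passed the test (0 of 5). SOD1 (ACIB2EUKG772197), annotated as copper-zinc superoxide dismutase, had 525 and 297 CPM in *GS115* and 370 and 353 in *Dmxr1*, with overlap (adjusted p = 0.624). A further copper-zinc row, ACIB2EUKG768195, had 474 and 381 CPM in *GS115* and 248 and 334 in *Dmxr1* (log2 fold change -0.56 ± 0.21 SE, adjusted p = 0.0833). Its libraries did not overlap, and it had the lowest log2 fold change of the 42 genes that did not pass. Manganese superoxide dismutase SOD2 (ACIB2EUKG768634), the enzyme of the mitochondrial matrix, had 300 and 274 CPM in *GS115* and 307 and 389 in *Dmxr1* (log2 fold change 0.28 ± 0.20 SE, adjusted p = 0.352). The copper chaperone CCS (ACIB2EUKG768370), which loads copper into SOD1, had a log2 fold change of 0.01 ± 0.17 SE.

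Methionine sulfoxide reductases repair oxidised methionine, msrA acting on one stereoisomer and msrB on the other. The msrA row ACIB2EUKG773061 had 58.1 and 65.0 CPM in *GS115* and 39.8 and 41.9 in *Dmxr1*, and was 1.51-fold lower in the mutant (log2 fold change -0.59 ± 0.17 SE, adjusted p = 0.0272). The threshold was no longer met with scaling by library size alone (adjusted p = 0.116), nor without *GS115* replicate 2 (adjusted p = 0.0675), *Dmxr1* replicate 1 (0.218) or *Dmxr1* replicate 2 (0.094), in a range of 0.0159 to 0.218 over all alternatives. The other msrA row, ACIB2EUKG771957, had 501 and 478 CPM in *GS115* and 395 and 461 in *Dmxr1* (log2 fold change -0.19 ± 0.19 SE, adjusted p = 0.525). The ratio of ACIB2EUKG773061 to it was 0.116 and 0.136 in *GS115* and 0.101 and 0.0908 in *Dmxr1*, without overlap (exact permutation two-sided p = 0.333). Here too the numerator had already passed the adjusted p, so the ratio adds no separate support. Of the msrB rows, ACIB2EUKG772134 had 106 and 105 CPM in *GS115* and 65.2 and 91.0 in *Dmxr1* (adjusted p = 0.12). The other, ACIB2EUKG770741, had 125 and 107 CPM in *GS115* and 125 and 130 in *Dmxr1* (adjusted p = 0.6). The ratio of the former to the latter was 0.847 and 0.987 in *GS115* and 0.522 and 0.698 in *Dmxr1*, with no overlap (exact permutation two-sided p = 0.333, the smallest possible). Free methionine-R-sulfoxide reductase ACIB2EUKG771574, which acts on the free amino acid, did not pass (0.38 ± 0.19 SE on the log2 scale, adjusted p = 0.196).

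Of the genes with another main function, ACIB2EUKG770505 was called lower. Its description names the C-terminal domain of iron-manganese superoxide dismutase, while its protein family entry is a mitochondrial 37S ribosomal protein. It had 347 and 189 CPM in *GS115* and 122 and 129 CPM in *Dmxr1*. The libraries did not overlap, but the *GS115* replicates differed by more than the lower of them differed from *Dmxr1*. The log2 fold change was -1.09 ± 0.24 SE (adjusted p = 0.00723) with all libraries and -0.59 (adjusted p = 0.0577) without *GS115* replicate 1, in a range of 5.32e-06 to 0.0577 over all alternatives. With scaling by library size alone it was -0.98, short of the fold threshold. Without the 7 genes of another main function, 2 of 44 were called lower and 0 higher (3.26% and 0.535% of all genes).

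Another mitochondrial ribosomal row, ACIB2EUKG772195 (protein S26), did not pass (-0.42 ± 0.17 SE on the log2 scale, adjusted p = 0.107). SCO1 (ACIB2EUKG772818), which has a thioredoxin fold and delivers copper to cytochrome c oxidase, had 68.1 and 81.9 CPM in *GS115* and 115 and 103 in *Dmxr1*. It was higher in the mutant without overlap, 1.46-fold (log2 fold change 0.54 ± 0.17 SE, adjusted p = 0.0441). This adjusted p rose to 0.212 without *GS115* replicate 1, 0.317 without *Dmxr1* replicate 1 and 0.084 without *Dmxr1* replicate 2, in a range of 0.0154 to 0.317 over all alternatives. Protein disulfide isomerase ACIB2EUKG772133, which forms disulfides in the endoplasmic reticulum, had 831 and 797 CPM in *GS115* and 799 and 986 in *Dmxr1* (adjusted p = 0.686), and isomerase A6 (ACIB2EUKG768249) did not pass either (0.31 ± 0.17 SE on the log2 scale, adjusted p = 0.235).

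**Figure D3:**
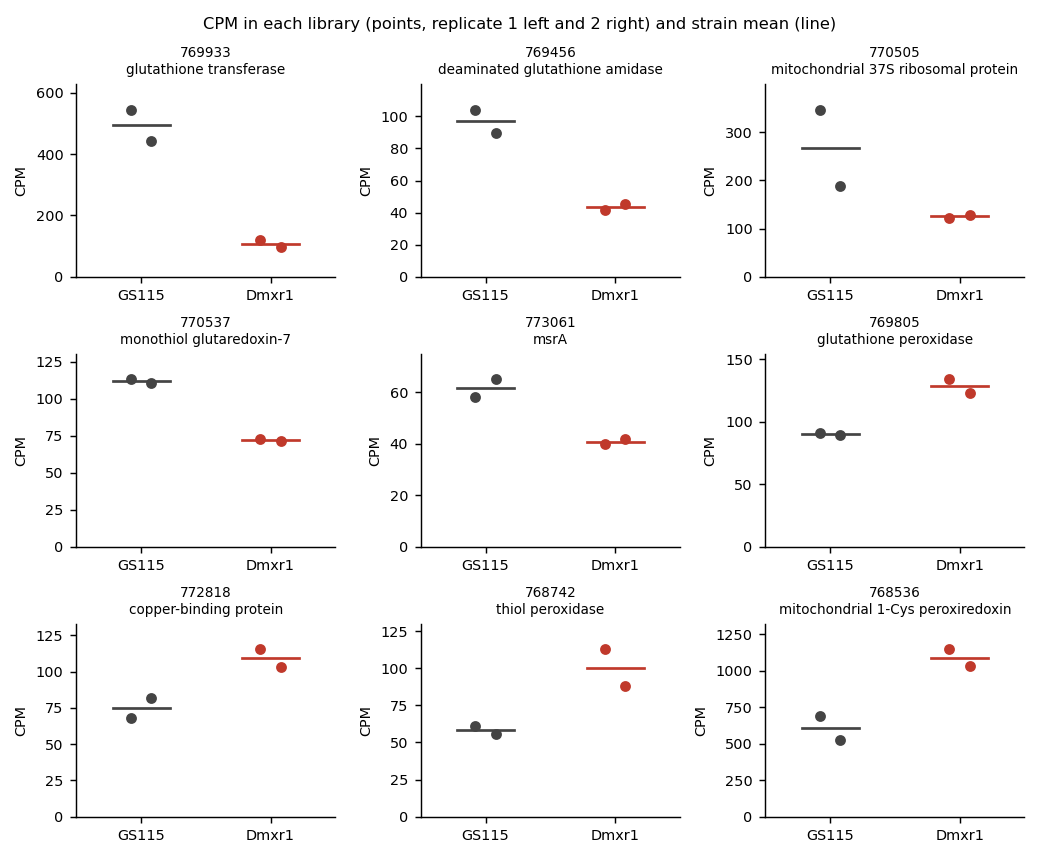
CPM of the 9 genes past an adjusted p of 0.05, in order of log2 fold change, each on its own axis from 0 (points are libraries, lines are strain means, gene identifiers without the prefix ACIB2EUKG). The strains do not overlap in any panel, and the *GS115* replicates of ACIB2EUKG770505 stand at 347 and 189 CPM.

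Replicates of *GS115* differed by at least 1.5-fold for 5 of the 51 genes (9.8%, against 5.49% of all genes), and those of *Dmxr1* for 0 of 51 (4.52% of all genes). The 5 were the thioredoxin peroxidase ACIB2EUKG769625, the cytoplasmic glutaredoxin ACIB2EUKG772137, SOD1, the thioredoxin ACIB2EUKG772752 and ACIB2EUKG770505, and each was higher in *GS115* replicate 1. Leaving that library out changed the counts of genes called to 2 lower and 1 higher of the 51. Standard errors were 0.16 to 0.30 on the log2 scale. They rest on the spread of 2 libraries per strain, which the test draws toward the spread typical of all genes tested.

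**Figure D4:**
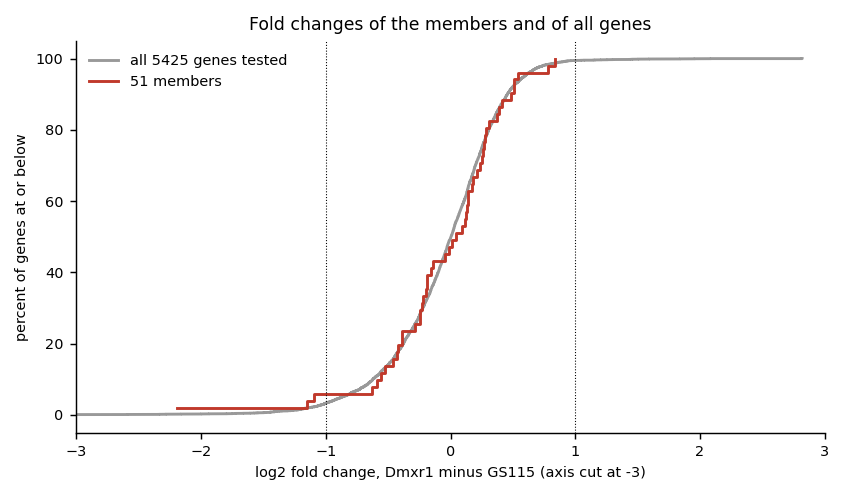
Cumulative percent of genes (y axis) at or below each log2 fold change (x axis, *Dmxr1* minus *GS115*) for the 51 genes and for all 5425 genes tested. The curves lie close together, with medians of 0.05 and 0.00, apart from the step at -2.19 made by the glutathione transferase ACIB2EUKG769933.

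Genes that supply or surround these systems were counted by direction from lists that exclude the 51. Their values under the alternatives were not examined gene by gene. The shares of all genes to read these counts against are 3.26% called lower and 0.535% called higher, and 10.5% lower and 5.07% higher by adjusted p alone. The list of sulfur assimilation and cysteine supply holds genes that provide the sulfur of glutathione, and also genes of methionine synthesis. Among its 19 genes, 0 were called, 4 were higher in *Dmxr1* by adjusted p alone and 0 were lower (edgeR, median log2 fold change 0.14). Sulfite reductase alpha subunit ACIB2EUKG772656 had 184 and 235 CPM in *GS115* and 421 and 367 in *Dmxr1*, and the strains did not overlap (0.91 on the log2 scale, adjusted p = 0.00728). The others past the adjusted p were sulfate adenylyltransferase ACIB2EUKG768823 (0.68, adjusted p = 0.0239), the sulfhydrylase MET17 (ACIB2EUKG772700, 0.61, adjusted p = 0.0475) and the cysteine synthase ACIB2EUKG770141 (0.60, adjusted p = 0.0289). The value of MET17 lies close to the threshold.

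Among 12 genes of NADPH supply, 1 was called lower and 1 higher (median log2 fold change 0.21). That list also holds transaldolase and transketolase rows, enzymes of the non-oxidative pentose phosphate pathway that do not make NADPH themselves. The row called lower was ACIB2EUKG768374, described as Sol1p and assigned to 6-phosphogluconolactonase of the pentose phosphate pathway (log2 fold change -1.10, edgeR adjusted p = 0.00375). The other 6-phosphogluconolactonase row, ACIB2EUKG770790, pointed the other way without overlap and did not pass (0.53, adjusted p = 0.0584). ACIB2EUKG770120, annotated as NADP-dependent isocitrate dehydrogenase, had 57.5 and 46.3 CPM in *GS115* and 143 and 183 in *Dmxr1* (log2 fold change 1.65, edgeR adjusted p = 6.15e-05). Another row with that annotation, ACIB2EUKG768327, had 332 and 327 CPM in *GS115* and 421 and 448 in *Dmxr1*. It did not pass (0.40, adjusted p = 0.159). Of 8 catalases and regulators of the oxidant response 0 were called, and 2 were lower by adjusted p alone. Their log2 fold changes were below 0 for 7 and above 0 for 1 (median -0.37), against 2687 below and 2738 above among all genes. In the other lists 6 were below 0 and 13 above (sulfur), 4 and 8 (NADPH supply), and 4 and 10 (other redox enzymes). The list of 8 was cut from 15 rows after values were seen, and its split was not tested. Of the 2 lower by adjusted p alone, peroxisomal catalase ACIB2EUKG769524 had 1339 CPM in each *GS115* library against 707 and 750 in *Dmxr1* (log2 fold change -0.88, edgeR adjusted p = 0.00951). An atf1-like factor, ACIB2EUKG772031, was the other (-0.61). Of 14 other redox enzymes 0 were called, 2 were lower by adjusted p alone and 1 was higher (median log2 fold change 0.16). Sulfiredoxin ACIB2EUKG770499, which reactivates over-oxidised peroxiredoxins, had 172 and 106 CPM in *GS115* and 65.8 and 83.5 in *Dmxr1* (log2 fold change -0.89, adjusted p = 0.0121). The remaining pair were cytochrome b5-like rows that moved in opposite directions, ACIB2EUKG768921 (-0.77) and ACIB2EUKG772644 (0.92).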

How the data were processed

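The authors deposited raw counts per gene for 2 RNA-Seq libraries each of *GS115* and *Dmxr1* (ethanol, 14 h). The submitters' processing notes name bcl2fastq 2.19.0.316, fastp 0.19.6, Bowtie2 (alignment), featureCounts 1.6.4 (counting) and DESeq2. The methods name a *K. phaffii* reference genome. How strand and multiply aligned reads were handled is not given in the sources used here. Near-identical and overlapping genes are therefore uncertain. All columns were matched to a sample (0 unmatched).

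A gene was tested when 2 or more libraries held at least 5 counts (5425 of 5427). The test was edgeR 4.0.16's quasi-likelihood test (R 4.3.3, TMM scaling, strain as the only term) with Benjamini-Hochberg adjustment over all genes. Calls needed an adjusted p of at most 0.05 and a log2 fold change of at least 1 in size. Each adjusted p is from this test, except that ranges over all alternatives also take in DESeq2 and the other settings. Standard errors were derived from the F statistic. The main fit was also run on simulated counts, with the same spread for every gene and planted changes larger than the fold threshold. That run did not cover smaller differences, such as those that passed the adjusted p alone. The p-values rest on the spread between 2 libraries per strain, which is poorly known for a single gene. The test draws it toward the spread typical of all genes tested, so it is not a gene's own spread alone. Replicates differed beyond sampling noise (chi-square per degree of freedom 173 and 93.2).

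Alternatives were DESeq2 1.42.0, its size factors, upper-quartile scaling, library size alone, no filter, a minimum of 50 counts, a replicate block and leaving out each library. Values per library are given for genes that passed, the most counted gene of each role, enzymes of a role with a call, and some others named after their values were seen. The genes and lists were chosen with earlier results of these data known. The glyoxalase role was added when the annotation was read, and the lists of surrounding genes were trimmed by annotation (from 22 to 19, 13 to 12, 15 to 8 and 51 to 14 rows) after their values were seen. The reference gene table covers another species and matched 0 rows, so names come from the authors' annotation.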

Additional observations from a re-analysis of the deposited data

How the results depend on the processing

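The glutathione transferase ACIB2EUKG769933 and the amidase ACIB2EUKG769456 kept their calls under all 11 alternatives, with log2 fold changes of -2.36 to -2.04 and -1.26 to -1.04. No gene past the adjusted p changed direction under any of the 11. That outcome says little, since the libraries of the strains do not overlap for any of these genes. With DESeq2, its size factors, no filter or a minimum of 50 counts, 3 of the 51 genes were called lower, 0 higher, and 5 and 4 passed by adjusted p alone. Upper-quartile scaling gave 5 lower and 6 higher by adjusted p alone. Library size alone left 2 called lower and 3 lower by adjusted p alone. A fit with a replicate block left 3 lower and 1 higher by adjusted p alone (no longer past it were ACIB2EUKG768536 at 0.0507, ACIB2EUKG770537 at 0.0556, ACIB2EUKG773061 at 0.0723, ACIB2EUKG772818 at 0.102 and ACIB2EUKG769805 at 0.104), and the same-numbered libraries did not deviate together (correlation -0.14 over 5425 genes), so the numbers are not taken as pairs. With the replicate numbers crossed, chosen after seeing the data, 7 were lower and 4 higher. Leaving out 1 library at a time gave 2 to 3 genes called lower, 0 to 1 called higher, 3 to 7 lower and 0 to 5 higher by adjusted p alone, and medians of -0.04 to 0.13. Over all genes it gave 94 to 290 called lower and 23 to 56 called higher, against 177 and 29 with all libraries. The lone library of a strain was then assumed to vary like the other strain, and the cause of these shifts was not tested. With 2 libraries per strain, differences under about the fold threshold are poorly resolved.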

Other observations

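The rows next to the genes called lower, by locus tag, were read after the values were seen. Beside the amidase ACIB2EUKG769456, the oxidoreductase-like mitochondrial row ACIB2EUKG769457 was also called lower, from 131 and 145 CPM in *GS115* to 46.4 and 56.9 in *Dmxr1* (log2 fold change -1.42, edgeR adjusted p = 0.000148), while the row on the other side, ACIB2EUKG769455, had -0.29. Beside ACIB2EUKG770505, the phosphatidylinositol 3-phosphate binding row ACIB2EUKG770506 was called lower (-1.18, adjusted p = 0.00484), with 587 and 366 CPM in *GS115* and 176 and 245 in *Dmxr1*. In ACIB2EUKG770505 and ACIB2EUKG770506 *GS115* replicate 1 was the higher *GS115* library. The row on the other side, ACIB2EUKG770504, did not pass (-0.50, adjusted p = 0.123). The neighbours of the transferase ACIB2EUKG769933 were the allantoicase ACIB2EUKG769932, which was higher in *Dmxr1* (0.66, adjusted p = 0.0223), and ACIB2EUKG769934 (-0.51, adjusted p = 0.0825). Reads that such neighbours may share were not tested, since the strand of the counting is not given in the sources used here.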
